A study of Homo sapiens with 64 samples.

Results

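The tricarboxylic acid (TCA) cycle genes and the genes that feed it with pyruvate and amino acid carbon were followed in the steroid-making human adrenocortical carcinoma cell line NCI-H295R after knockdown of NNT. The set held 29 genes, chosen by name and function, of 26364 genes listed. It comprised 12 enzymes of the cycle and of the 2-oxoglutarate dehydrogenase complex, 4 subunits of pyruvate dehydrogenase, 4 pyruvate dehydrogenase kinases, 2 pyruvate dehydrogenase phosphatases, 3 genes of pyruvate import and carboxylation, and 4 genes of the malate-aspartate shuttle and of transamination. All 29 passed the filter on low counts, with at least 665 counts in every library. Messenger RNA was sequenced from 16 libraries of that 1 cell line. The groups were cells with an NNT shRNA (4 libraries) against cells with a scrambled shRNA (3 libraries), and cells transfected with NNT siRNA-2 (3 libraries) or NNT siRNA-3 (3 libraries) against cells transfected with a scrambled siRNA (3 libraries). The siRNA cells were collected 72 h after transfection. The labels do not state the vector behind the shRNAs, the time since they were introduced, or whether the cells came from a pool or from single clones. Libraries are named by the codes in their titles.

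Pyruvate dehydrogenase is the mitochondrial complex that turns pyruvate into acetyl-CoA, the fuel of the TCA cycle. Its kinases switch it off by phosphorylation and its phosphatases switch it on again, while pyruvate carboxylase sends pyruvate into oxaloacetate instead, which refills the cycle (anaplerosis). Dehydrogenases of the cycle pass electrons to NADH, and NNT, nicotinamide nucleotide transhydrogenase, uses mitochondrial NADH and the proton gradient to make NADPH. In steroid-making adrenal cells, that NADPH serves the mitochondrial steroid hydroxylases and the defence against peroxides.

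The libraries held 20148231 to 43992833 counts on genes. Levels are given as CPM, the counts of a gene relative to the library total scaled by TMM, and a log2 fold change is that of edgeR's quasi-likelihood fit. NNT itself stood at 28.7, 29.8, 34.6 and 34.0 CPM in the NNT shRNA libraries, against 381, 317 and 415 CPM in the scrambled shRNA libraries. It stood at 36.1, 31.8 and 47.8 CPM in the siRNA-3 libraries. With siRNA-2 it stood at 233 CPM in library 11-12, 49.9 CPM in library 11-1 and 187 CPM in library 16-1, and in the scrambled siRNA libraries at 353, 296.5 and 362 CPM. The 3 siRNA-2 libraries thus carried very unequal NNT levels, all below the scrambled siRNA libraries. In the fit NNT fell by 3.54 on the log2 scale in shRNA cells (SE 0.32, adjusted p = 2.36e-05) and by 3.13 in siRNA-3 cells (SE 0.35, adjusted p = 0.000172). The siRNA-2 value was -1.11 (SE 0.32, adjusted p = 0.0777), which missed the threshold of 0.05 after Benjamini-Hochberg adjustment over 15201 genes. Leaving out library 11-12 made the siRNA-2 value -1.51 (adjusted p = 0.0214), and leaving out library 11-1 made it -0.68. Results for siRNA-2 below thus rest on libraries with unequal loss of the NNT transcript. Averaged over the 16 libraries, all 10 adrenocortical markers were at 1 CPM or more. So were 3 of 6 chromaffin or neural and 2 of 6 fibroblast markers, but 0 of 4 endothelial, 0 of 4 leukocyte and 0 of 3 hepatocyte markers. The labels do not say whether libraries of 1 group are separate cultures, and p-values therefore reflect a spread between libraries that may be technical. In bulk RNA, fewer cells with a transcript and less of it per cell cannot be told apart.

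Levels differed far more between the genes than between libraries. To compare genes, CPM was divided by the length of each gene's principal transcript (GENCODE 29), and values are the mean ± SD over all 16 libraries. PDK4, the pyruvate dehydrogenase kinase known as a switch to fat burning in fasted tissue, was highest at 380.3 ± 38.4 CPM per kb. CS, the citrate synthase that opens the cycle, followed at 200.4 ± 6.81 CPM per kb. After a gap came MDH1 (151 CPM per kb), FH and MDH2 (142 CPM per kb each) and GOT2 (133 CPM per kb), which all take part in making or using malate and oxaloacetate. Among neighbours in this order, only PDK4 and CS, CS and MDH1, GOT2 and OGDH, and PC and PDK1 had ranges over the libraries that did not overlap. All other neighbouring genes could not be ordered beyond their spread. PDK1 was lowest at 4.90 ± 1.11 CPM per kb, a value that rests on a long principal transcript of 14.193 kb. Summed over the 29 genes, the level was 5134 to 5478 CPM in the NNT shRNA libraries and 5096 to 5433 CPM in the scrambled shRNA libraries. In siRNA-2 libraries the sum was 5280.2 to 5435 CPM and in siRNA-3 libraries 5119.9 to 5605 CPM, against 5098 to 5665 CPM in scrambled siRNA libraries, so the ranges overlapped throughout. The coefficient of variation over the 16 libraries was 9.13% for the median gene of the set, with 3.40% for CS at the steady end and 22.7% for PDK1 at the variable end. The median was 14.5% over all genes tested, and 10.8% over the 8056 genes with a mean of at least 20 CPM.

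**Figure D1:**
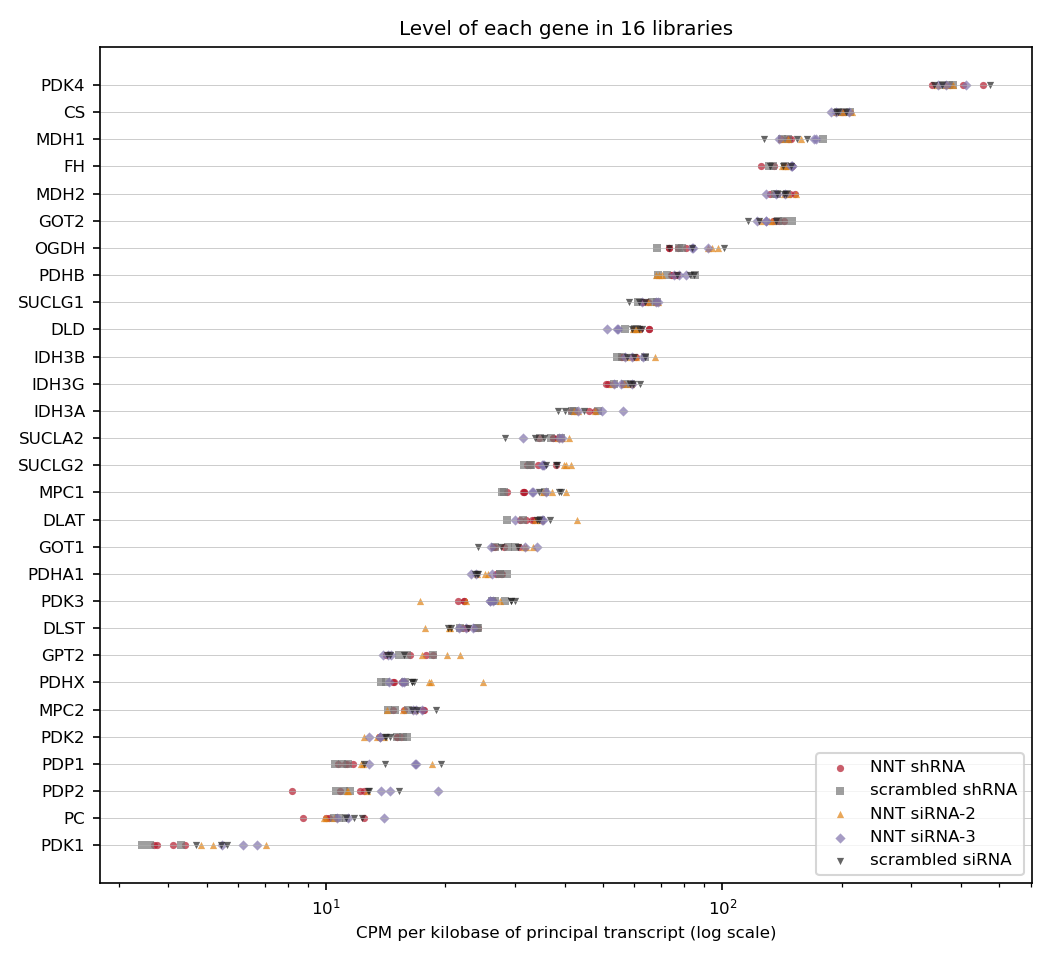
Level of each of the 29 genes in each of 16 libraries, in CPM per kilobase of the principal transcript on a log axis, with genes ordered by their mean and 1 symbol per group. PDK4 sits alone at the top near 380.3 CPM per kb and PDK1 at the bottom near 4.90 CPM per kb, while the symbols of the 5 groups lie on top of each other for most genes.

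The pyruvate dehydrogenase complex is built from an E1 part that decarboxylates pyruvate, an E2 core that makes acetyl-CoA and the shared E3 part DLD. PDHB, the beta subunit of E1, was the highest of its 4 own genes at 75.9 CPM per kb, and ranged from 104 to 130.3 CPM over the libraries. DLAT, the E2 core, had 33.8 CPM per kb (128 to 191 CPM). PDHA1, the alpha subunit of E1 that the kinases phosphorylate, had 25.8 CPM per kb (76.8 to 94.9 CPM). PDHX, which anchors E3 to the core, had 16.3 CPM per kb and stood apart by its range of 32.9 to 59.4 CPM. Its highest value came from siRNA-2 library 11-1. The next highest, 44.0 CPM, was in siRNA-2 library 16-1.

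Of the kinases, PDK4 made up 89.0 to 91.6% of the summed kinase level per kb in NNT shRNA libraries and 88.7 to 89.1% in scrambled shRNA libraries. The share was 88.8 to 90.4% with siRNA-2, 88.5 to 90.0% with siRNA-3 and 87.6 to 90.6% with the scrambled siRNA, so it overlapped in every comparison. PDK4 had 1344, 1212, 1623 and 1445 CPM in the NNT shRNA libraries, against 1287, 1368 and 1333 CPM in the scrambled shRNA libraries. The NNT shRNA values enclosed the scrambled ones. PDK3 followed at 25.5 CPM per kb, PDK2 at 14.3 CPM per kb and PDK1, a target of the hypoxia response, at 4.90 CPM per kb. The shares and this order depend on the length of 14.193 kb used for PDK1. Before division by length PDK1 had a mean of 69.6 CPM, against 49.2 CPM for PDK2 and 48.9 CPM for PDK3. Of the phosphatases, PDP1 had 13.3 and PDP2 12.5 CPM per kb, and both varied more than most of the set, with coefficients of variation of 22.0% and 19.3%.

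PDHX and PDP2 differed between the siRNAs, and PDK4 was the highest transcript of the set. PDK3 was lower in each knockdown group than in its control by mean level, as were IDH3G, PDHB and PDK2. For PDHX, PDP2, PDK3 and PDK4, the 250 bases before the RefSeq start are shown. They are from build GRCh38.p14, at chr11:34916188-34916437 (plus strand) for PDHX, the first of 2 starts listed, chr16:66880265-66880514 (plus strand) for PDP2, chrX:24465036-24465285 (plus strand) for PDK3 and chr7:95596517-95596766 (minus strand) for PDK4. Capitals mark the GC box, GGGCGG or its reverse complement, the letters that factors of the SP family bind.
PDHX: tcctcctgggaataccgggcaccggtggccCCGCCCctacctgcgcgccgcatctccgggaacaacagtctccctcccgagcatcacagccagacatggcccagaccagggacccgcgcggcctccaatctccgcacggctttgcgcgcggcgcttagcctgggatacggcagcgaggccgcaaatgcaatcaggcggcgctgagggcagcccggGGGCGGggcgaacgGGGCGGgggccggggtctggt
PDP2: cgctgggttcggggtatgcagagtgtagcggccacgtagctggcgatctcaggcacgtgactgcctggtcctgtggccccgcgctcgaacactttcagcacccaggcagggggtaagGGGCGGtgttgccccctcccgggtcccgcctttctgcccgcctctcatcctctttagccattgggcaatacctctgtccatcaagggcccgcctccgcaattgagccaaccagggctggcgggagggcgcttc
PDK3: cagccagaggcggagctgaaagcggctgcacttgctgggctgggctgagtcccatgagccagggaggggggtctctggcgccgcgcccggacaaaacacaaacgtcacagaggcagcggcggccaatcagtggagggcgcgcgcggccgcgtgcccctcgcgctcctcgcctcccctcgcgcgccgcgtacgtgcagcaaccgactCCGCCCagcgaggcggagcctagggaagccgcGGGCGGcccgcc
PDK4: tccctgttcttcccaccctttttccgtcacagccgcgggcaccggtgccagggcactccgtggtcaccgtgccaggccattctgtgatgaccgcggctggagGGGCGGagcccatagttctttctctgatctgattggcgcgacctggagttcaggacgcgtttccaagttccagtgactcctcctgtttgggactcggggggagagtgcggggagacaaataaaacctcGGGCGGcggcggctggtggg
PDHX held 3 GC boxes, at 220, 35 and 21 bases before the start, PDP2 held 1, and PDK3 and PDK4 held 2 each, with no overlap between them. A GC box was present in 19 of the 26 genes of the set with a RefSeq promoter and in 46.2% of all 27305 genes with one. Each motif was searched on both strands of the same 250 bases. The ATF4 and C/EBP element TGATGNAA was found in 1 of the 26 (GOT1) and in 3.89% of all, and the nuclear receptor element AAGGTCA in 1 of the 26 (SUCLA2) and in 4.22% of all. The FOXO element GTAAACA, of a factor family known to act on PDK4, was in 0 of the 26 and in 3.66% of all. OGDH, PDP1 and GPT2 had no entry in the RefSeq table used here.

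Among the enzymes of the cycle, CS was the steadiest gene of the set, with 559 to 633 CPM over the libraries. The NAD-dependent isocitrate dehydrogenase, which makes 2-oxoglutarate and NADH, is built from IDH3A, IDH3B and IDH3G. IDH3A had 44.7 CPM per kb (159 to 232 CPM), IDH3B had 59.4 CPM per kb (83.7 to 104 CPM) and IDH3G had 56.4 CPM per kb (75.6 to 92.2 CPM). Of the 2-oxoglutarate dehydrogenase complex, the E1 subunit OGDH had 83.2 CPM per kb (286 to 421 CPM), the E2 subunit DLST had 22.0 CPM per kb (50.4 to 68.6 CPM) and the E3 subunit DLD had 59.7 CPM per kb (192 to 245 CPM). The succinyl-CoA ligase, the step of the cycle that makes ATP or GTP directly, has the shared subunit SUCLG1 at 64.9 CPM per kb (85.8 to 101 CPM), the ATP-forming SUCLA2 at 36.5 CPM per kb (62.1 to 89.7 CPM) and the GTP-forming SUCLG2 at 35.9 CPM per kb (74.3 to 97.6 CPM). FH, the fumarase, had 225 to 269.8 CPM, and the mitochondrial malate dehydrogenase MDH2 had 285 to 338 CPM. None of the 12 enzymes in this part of the set differed by more than 1.47 times between its highest and lowest library, a ratio reached by OGDH.

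Pyruvate enters mitochondria through a carrier made of MPC1 (33.8 CPM per kb, 26.7 to 38.8 CPM) and MPC2 (16.3 CPM per kb, 31.0 to 41.2 CPM). Pyruvate carboxylase, PC, had 11.0 CPM per kb (36.7 to 58.6 CPM). In the malate-aspartate shuttle, which carries cytosolic NADH equivalents inward, the cytosolic MDH1 and GOT1 had 151 and 29.2 CPM per kb and the mitochondrial GOT2 had 133 CPM per kb. GPT2, the mitochondrial alanine transaminase that makes 2-oxoglutarate from glutamate and pyruvate, had 16.5 CPM per kb and a range of 55.3 to 86.8 CPM, with its 2 highest values in siRNA-2 libraries 11-1 and 16-1.

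The shRNA comparison asked what differs in cells that carry the NNT shRNA, and 0 of the 29 genes passed edgeR's test although NNT had fallen to 31.8 ± 2.95 CPM (SD, n = 4) against 371 ± 49.9 CPM (SD, n = 3). The background was also low, with 0.0197% of all genes tested passing (3 genes, NNT among them). At an unadjusted p under 0.05, 0 of the 29 stood against 1.43% of all genes, and DESeq2 called 0 of the 29 and 0.0197% of all. The 2 groups of libraries overlapped for all 29 genes, while 3.19% of all genes did not overlap. The median log2 fold change of the 29 was 0.003, against 0.006 for all genes, with 16 above 0 and 13 below. The 95% intervals of all 29 lay between -0.46 and 0.35 on the log2 scale, and so within 1.38-fold. Within the roles, the intervals reached at most 1.17-fold for the 12 cycle enzymes, 1.20-fold for the 4 complex subunits and 1.38-fold for the 4 kinases.

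The smallest p of the 29 in the shRNA comparison belonged to PDK3, the kinase of the complex known for its high activity and its induction by hypoxia. PDK3 had 41.3, 42.7, 42.7 and 50.6 CPM in the NNT shRNA libraries, against 50.2, 54.4 and 51.1 CPM in the scrambled shRNA libraries. The NNT shRNA library 24-2 overlapped the scrambled values and the other 3 lay below them. In each of the 3 pairs of libraries with the same title code, PDK3 was lower in the NNT shRNA library. Its log2 fold change was -0.23 (SE 0.11), or -0.21 (SE 0.10) with the code as a block, and passed in neither fit. DLD (0.09, SE 0.06) and MPC2 (0.12, SE 0.09) had the next smallest p and did not pass either. The X-linked PDHA1, the phosphorylation target of the kinases, had a log2 fold change of -0.03 (SE 0.06), and PDK4 had 0.08 (SE 0.11).

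With siRNA-2, 0 of the 29 genes passed edgeR's test against the scrambled siRNA, where 1.97% of all genes passed. At an unadjusted p under 0.05 there were 6 (GOT1, GPT2, PDHB, PDHX, PDK3 and SUCLA2), against 18.6% of all genes. DESeq2 called 3 of the 29, GPT2, PDHB and PDK3, against 6.75% of the genes to which it gave an adjusted p. In 11 of the 29 the 3 siRNA-2 libraries did not overlap the 3 scrambled siRNA libraries, against 22.4% of all genes. No gene of the set differed by over 1.5-fold in the fit, and the 95% intervals of all 29 lay within 1.57-fold.

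GPT2 was closest to the threshold. It had 69.7, 86.8 and 80.6 CPM with siRNA-2, against 57.9, 56.7 and 62.8 CPM with the scrambled siRNA, and all 3 siRNA-2 libraries were higher. Its log2 fold change of 0.42 (SE 0.11, adjusted p = 0.0517) missed the threshold, and it passed without library 11-12 (0.50, adjusted p = 0.0229). Over 13 alternatives in edgeR or DESeq2, GPT2 passed in 4. Its log2 fold change ranged from 0.35 to 0.50 there, with adjusted p-values of 0.0121 to 0.222. PDK3 had 52.9, 33.2 and 43.4 CPM with siRNA-2, against 56.1, 57.6 and 56.3 CPM with the scrambled siRNA. All 3 were lower, and the lowest was library 11-1, which also had the least NNT transcript of that group. The siRNA-3 libraries, with 36.1, 31.8 and 47.8 CPM of NNT, had 49.9, 49.8 and 50.8 CPM of PDK3. A link between both transcripts was not tested. With siRNA-2 the log2 fold change of PDK3 was -0.39 (SE 0.12, adjusted p = 0.0948), -0.56 (adjusted p = 0.0148) without library 11-12 and -0.24 (adjusted p = 0.367) without library 11-1. PDHB had 106, 104 and 107 CPM with siRNA-2, against 117, 126 and 129 CPM with the scrambled siRNA. The groups did not overlap, yet the log2 fold change of -0.23 (SE 0.08, adjusted p = 0.117) did not pass in edgeR.

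With siRNA-3, which left less NNT transcript than siRNA-2, 0 of the 29 genes passed edgeR's test, where 2.12% of all genes passed. At an unadjusted p under 0.05 there were 2 (DLD and IDH3A), against 17.8% of all genes, and DESeq2 called DLD alone, against 6.10% of all genes with an adjusted p. The libraries did not overlap in 6 of the 29, against 21.1% of all genes, and the 95% intervals of the 29 lay within 1.42-fold. DLD, the E3 subunit that both the pyruvate and the 2-oxoglutarate complexes need, had 205, 192 and 204 CPM with siRNA-3, against 231, 235 and 222 CPM with the scrambled siRNA. All siRNA-3 libraries were lower. The log2 fold change was -0.20 (SE 0.07), with an adjusted p of 0.127 in edgeR and of 0.0275 in DESeq2. Exons of DLD and of LAMB1 on the other strand share 70 bases, and LAMB1 had a similar value (log2 difference -0.19, SE 0.08, adjusted p = 0.218). In all, 11 of the 29 genes share exon bases with a gene on the other strand, how the counting treated strand is not stated in the labels, and the part of LAMB1 in the DLD value was not tested. IDH3A had 232, 179 and 205 CPM with siRNA-3, against 165, 159 and 184 CPM with the scrambled siRNA. The groups overlapped, and the log2 fold change of 0.27 (SE 0.10, adjusted p = 0.148) did not pass. SUCLA2 (0.17, SE 0.10, adjusted p = 0.389) had the third smallest p.

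For the mean of both siRNAs, 0 of the 29 genes passed edgeR's test (0.23% of all genes did), 5 had an unadjusted p under 0.05 (GOT1, IDH3A, PDHB, PDK3 and SUCLA2, against 13.1% of all genes) and DESeq2 called 0 (2.16% of all genes with an adjusted p). PDK3 had the smallest p, at -0.28 on the log2 scale (SE 0.10, adjusted p = 0.248), followed by SUCLA2 at 0.23 (SE 0.09, adjusted p = 0.260) and IDH3A at 0.19 (SE 0.09, adjusted p = 0.349). The siRNA-2 and siRNA-3 comparisons share their 3 scrambled libraries. The effect of the shRNA less the mean effect of both siRNAs passed for 0 of the 29 in edgeR (0.00658% of all genes) and for 0 in DESeq2 (0.0724% of all genes). At an unadjusted p under 0.05 it held DLD alone, against 5.97% of all genes. That difference of effects was 0.19 for DLD (SE 0.08, adjusted p = 0.802), 0.22 for MPC2 (SE 0.12, adjusted p = 0.838) and -0.23 for SUCLA2 (SE 0.12, adjusted p = 0.845) on the log2 scale.

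**Figure D2:**
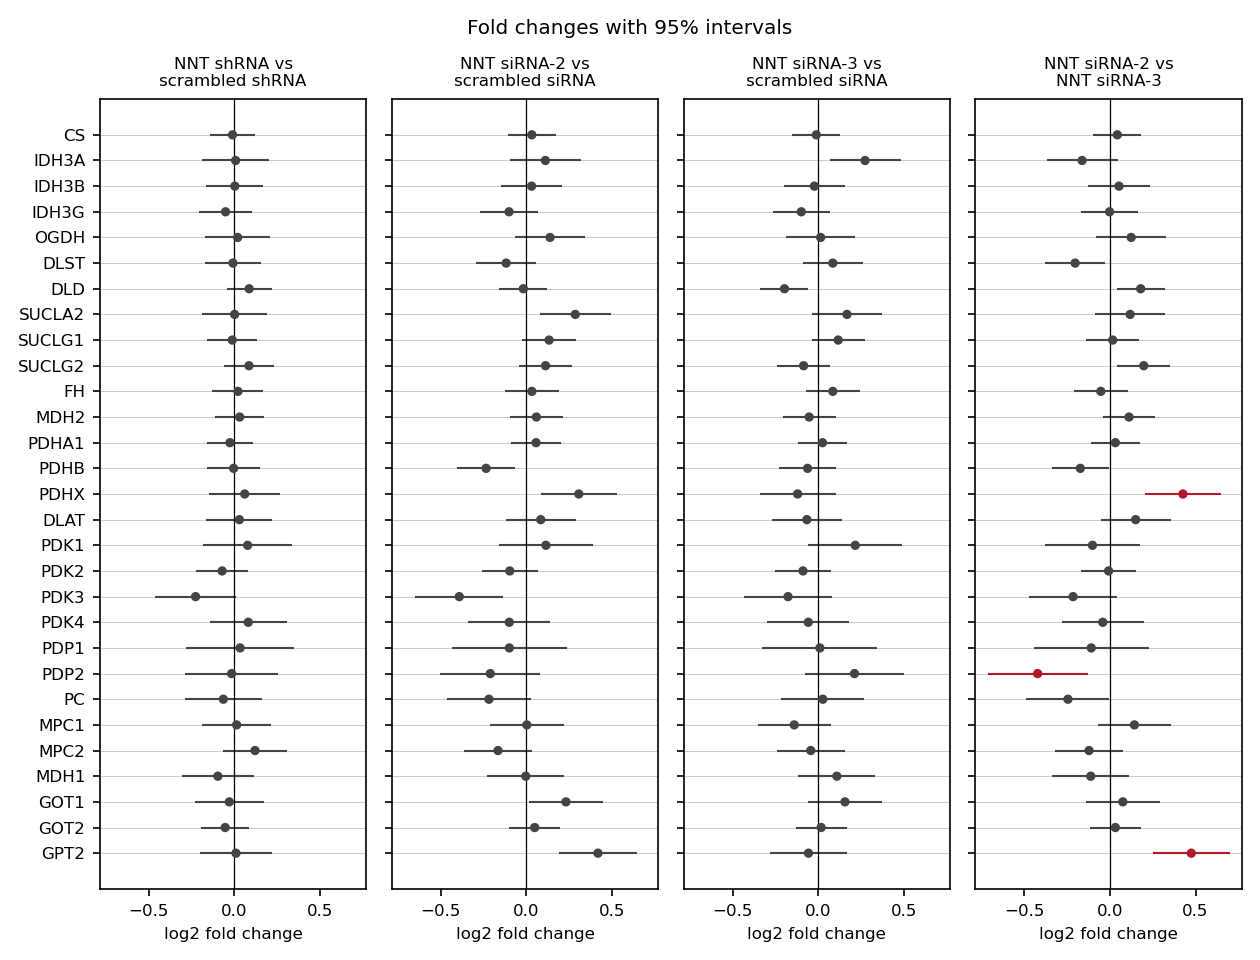
Log2 fold change (points) with its 95% interval (bars) for each of the 29 genes in 4 comparisons, with red for an adjusted p under 0.05 in edgeR's test. In the shRNA panel all intervals lie between -0.46 and 0.35, and red points appear only for PDHX, PDP2 and GPT2 in the panel of siRNA-2 against siRNA-3.

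The 2 siRNAs were then compared with each other, which asks whether 2 agents against 1 target gave the same levels. Here 3 of the 29 genes passed edgeR's test, GPT2 and PDHX higher and PDP2 lower with siRNA-2 than with siRNA-3, where 14.4% of all genes passed. At an unadjusted p under 0.05 there were 8 of the 29 (DLD, DLST, GPT2, PC, PDHB, PDHX, PDP2 and SUCLG2), against 29.7% of all genes. DESeq2 called 5 (DLD, GPT2, PDHX, PDP2 and SUCLG2), against 18.6% of all genes with an adjusted p, and the libraries did not overlap in 9 of the 29, against 31.6% of all genes. These counts are near or below the shares over all genes. The median log2 fold change of the 29 was 0.02, against 0.01 for all genes, and the 95% intervals lay within 1.64-fold.

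GPT2 had 69.7, 86.8 and 80.6 CPM with siRNA-2, against 56.9, 55.3 and 58.2 CPM with siRNA-3. The siRNA-3 libraries lay within a narrow band close to the scrambled siRNA values, and the siRNA-2 libraries were all above it. The log2 fold change was 0.48 (SE 0.11, adjusted p = 0.0076), with adjusted p-values of 0.000866 to 0.0418 over the alternatives tried. In the shRNA cells GPT2 had 71.2, 74.3, 56.5 and 64.9 CPM, against 63.8, 74.3 and 60.8 CPM with the scrambled shRNA, which overlapped.

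PDHX, the E3-binding protein of the complex whose promoter is shown above, had 43.4, 59.4 and 44.0 CPM with siRNA-2, against 34.4, 37.6 and 37.2 CPM with siRNA-3. All siRNA-2 libraries were above all siRNA-3 libraries, and library 11-1 was far above the other 2. In the fit PDHX was higher (log2 difference 0.43, SE 0.11, adjusted p = 0.0124). Without siRNA-2 library 11-1 it was 0.26 and no longer passed (adjusted p = 0.0750), and without siRNA-3 library 11-1 it was 0.38 (adjusted p = 0.0652). The scrambled siRNA libraries, at 39.8, 39.4 and 39.4 CPM, lay between both siRNAs. PDHX shares 259 exon bases with APIP on the other strand, and APIP did not pass (log2 difference 0.08, SE 0.10, adjusted p = 0.644).

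PDP2, the phosphatase that reactivates pyruvate dehydrogenase and is known in rats to fall on starvation, had 81.3, 80.5 and 90.6 CPM with siRNA-2, against 137, 98.5 and 103 CPM with siRNA-3. The groups did not overlap, and siRNA-3 library 11-1 was far above the rest. PDP2 had a fitted log2 difference of -0.42 (SE 0.14, adjusted p = 0.0493), just inside the threshold. Without siRNA-3 library 11-1 it was -0.27 (adjusted p = 0.255), and the call was also lost when any 1 of the siRNA-2 libraries was left out (adjusted p = 0.0602 to 0.141) and under a stricter low-count filter (adjusted p = 0.0549). A fit on the siRNA-2 and siRNA-3 libraries alone, with fewer libraries to estimate the spread, called GPT2 (adjusted p = 0.0418) but neither PDHX (adjusted p = 0.0936) nor PDP2 (adjusted p = 0.0909). The scrambled siRNA libraries had 109, 91.5 and 91.3 CPM and overlapped siRNA-3. In the shRNA cells PDP2 had 77.6, 86.8, 58.7 and 89.1 CPM, against 75.5, 82.0 and 79.2 CPM with the scrambled shRNA, where the NNT shRNA values enclosed the scrambled ones.

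Other measures are given for the same contrast, in which 31.6% of all genes did not overlap between the siRNAs. The summed level of 6 chromaffin and neural markers, of which 3 averaged 1 CPM or more, was 57.3 to 71.6 CPM with siRNA-2, against 33.0 to 43.9 CPM in siRNA-3 libraries, while scrambled siRNA libraries had 43.9 to 50.3 CPM. For 6 fibroblast markers, of which 2 averaged 1 CPM or more, the sum was 13.5 to 22.3 CPM with siRNA-2, against 8.25 to 11.7 CPM in siRNA-3 libraries, while scrambled siRNA libraries had 12.2 to 15.4 CPM. Of these markers CHGA, CHGB, SYP, COL1A1 and COL3A1 averaged 1 CPM or more. The catecholamine enzymes TH, DBH and PNMT reached at most 0.0880 CPM in any library, and COL1A2, PDGFRB, LUM and DCN stayed below 1 CPM. NNT itself also differed (log2 difference 2.02, SE 0.34, adjusted p = 0.00111). The 10 adrenocortical markers summed to 3760.2 to 4164 CPM with siRNA-2, against 4334 to 5090.0 CPM in siRNA-3 libraries, while scrambled siRNA libraries had 3754 to 4964 CPM. SCARB1 alone averaged 2372 CPM over all 16 libraries, so that sum mostly follows 1 gene. Reads on no gene made up 13.6%, 16.5% and 12.2% in the siRNA-2 libraries, against 12.6%, 14.3% and 12.5% in the siRNA-3 libraries. These shares overlapped, and the highest of all 16 was that of siRNA-2 library 11-1. The part of any of these in the values of GPT2, PDHX and PDP2 was not tested.

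**Figure D3:**
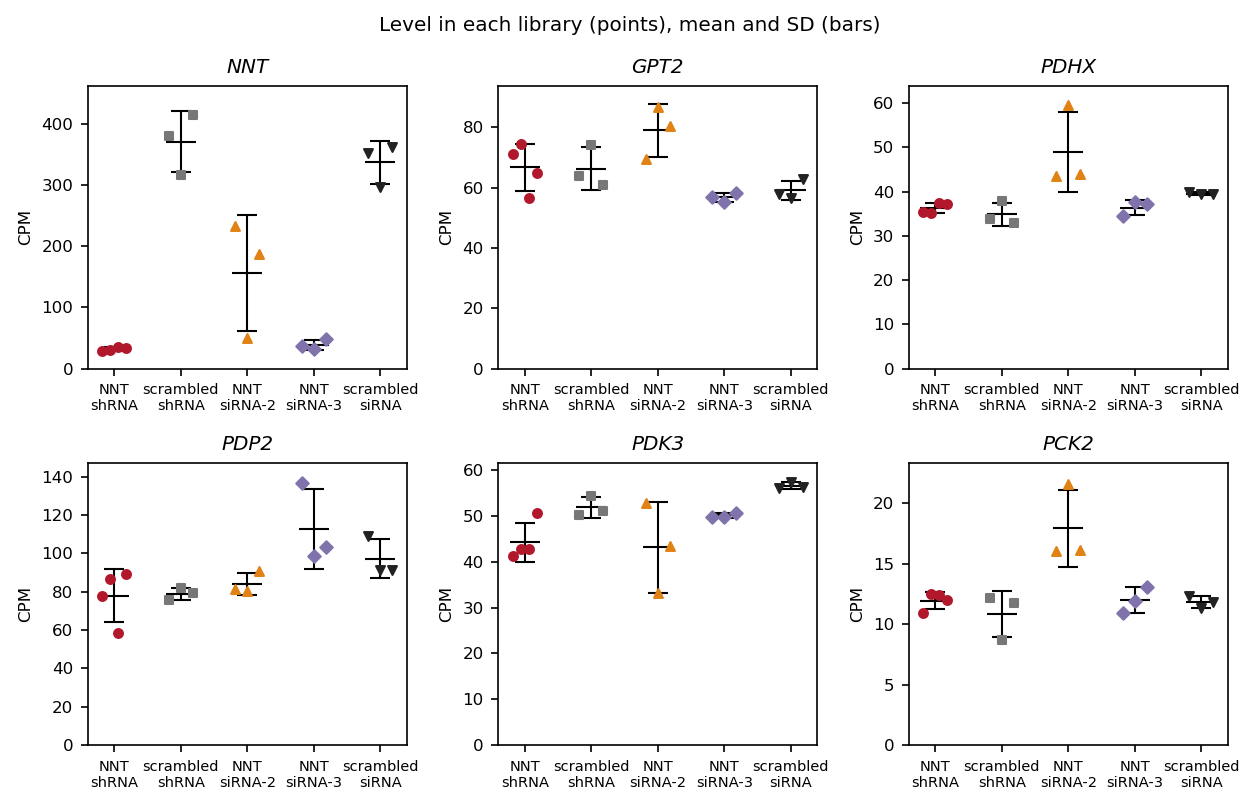
Level in CPM of NNT, GPT2, PDHX, PDP2, PDK3 and PCK2 in each library (points), with the mean and SD of each group (bars), on axes that start at 0. For GPT2, PDHX and PCK2 the siRNA-2 libraries lie above those of siRNA-3 and of the scrambled siRNA, PDP2 is highest in 1 siRNA-3 library at 137 CPM, and NNT in the 3 siRNA-2 libraries spreads between 49.9 and 233 CPM.

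The controls of both systems were also set against each other, to show how much the genes differ without NNT knockdown. The agent and its delivery differ between these controls, and the design cannot tell their parts in any difference apart. None of the 29 passed edgeR's test between scrambled siRNA and scrambled shRNA cells, where 1.74% of all genes passed. At an unadjusted p under 0.05 there were 8 (GOT2, MPC1, MPC2, PDHA1, PDK1, PDP1, PDP2 and SUCLG2), against 16.8% of all genes. DESeq2 called PDK1 and PDHA1, against 4.69% of all genes with an adjusted p, and the libraries did not overlap in 11 of the 29, against 24.2% of all genes. PDK1 had 77.0, 79.9 and 66.6 CPM with the scrambled siRNA, against 50.9, 61.2 and 48.8 CPM with the scrambled shRNA, 0.48 apart on the log2 scale (SE 0.13; edgeR adjusted p = 0.0748, DESeq2 adjusted p = 0.0265). PDP1, the calcium-activated phosphatase, had 83.5, 60.3 and 53.1 CPM with the scrambled siRNA, against 45.0, 48.6 and 46.8 CPM with the scrambled shRNA. Both sets of PDP1 and PDK1 values were apart, but PDP1 did not pass (0.49, SE 0.16, adjusted p = 0.128), and stood at 0.28 without scrambled siRNA library 16-1. Without scrambled siRNA library 30-11 PDK1 passed (0.55, adjusted p = 0.0474). PDHA1 had 79.9, 78.7 and 79.8 CPM with the scrambled siRNA, against 91.1, 90.7 and 94.9 CPM with the scrambled shRNA, which gave -0.22 on the log2 scale (SE 0.07) with adjusted p-values of 0.120 in edgeR and 0.0255 in DESeq2.

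**Figure D4:**
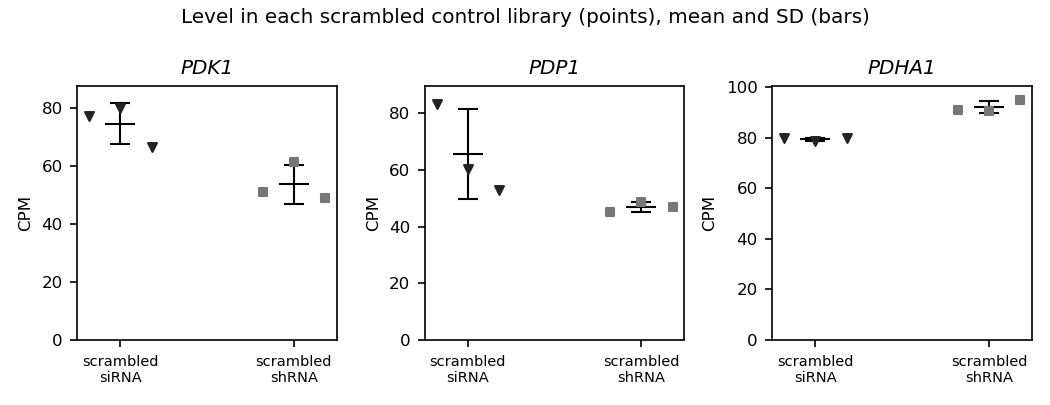
Level in CPM of PDK1, PDP1 and PDHA1 in each scrambled control library (points), with the mean and SD of each group (bars), on axes that start at 0. The scrambled siRNA libraries lie above the scrambled shRNA libraries for PDK1 and PDP1 and below them for PDHA1.

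PDK3 had a lower mean in each of the 3 knockdown groups than in its control, a pattern singled out after its values were seen. Its mean was 44.3 ± 4.25 CPM (SD, n = 4) for the NNT shRNA, against 51.9 ± 2.22 CPM (SD, n = 3) for its control. With siRNA-3 it had 49.9, 49.8 and 50.8 CPM, all below the 3 scrambled siRNA libraries listed above, and the log2 fold change was -0.18 (SE 0.12). No comparison passed edgeR's test for PDK3, and the siRNA comparisons share their control libraries. The pattern was not particular to PDK3. IDH3G, PDHB and PDK2 also had log2 fold changes below 0 in all 3 knockdown groups. For PDK2, as for PDK3, the libraries of both siRNAs lay below all scrambled siRNA libraries. The share of all genes with this pattern was not counted.

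Around the 29 genes, 40 further genes of the same metabolism were followed, such as aconitases, succinate dehydrogenase and its assembly factors, lipoate enzymes, malic enzymes and mitochondrial carriers. Of these, 37 passed the filter on low counts, while 3, among them PCK1 and GPT, were too low to test. With the NNT shRNA 0 of the 37 passed edgeR's test, where 0.0197% of all genes did, and LIAS, the lipoate synthase that builds the cofactor of DLAT and DLST, had the smallest p with a log2 fold change of 0.24 (SE 0.11). LIAS had 6.70, 7.65, 7.31 and 7.08 CPM in NNT shRNA cells, against 6.54, 5.98 and 5.74 CPM in scrambled shRNA cells, without overlap. With siRNA-2 1 of the 37 rose, where 1.97% of all genes passed. PCK2, the mitochondrial PEP carboxykinase that takes oxaloacetate out of the cycle, had 16.0, 21.6 and 16.1 CPM with siRNA-2, against 12.3, 11.3 and 11.9 CPM with the scrambled siRNA. All siRNA-2 libraries were higher. The log2 fold change was 0.60 (SE 0.14, adjusted p = 0.0384), but 0.44 (adjusted p = 0.190) without library 11-1. The call was also lost with only these 2 groups in the fit (adjusted p = 0.204) and when any 1 scrambled siRNA library was left out (adjusted p = 0.0684 to 0.147). With siRNA-3 0 of the 37 passed edgeR's test, where 2.12% of all genes did. LIPT2, which transfers octanoyl groups in lipoate synthesis, had the smallest p at 0.55 (SE 0.17, adjusted p = 0.0862). DESeq2 called LIPT2 alone of the 37 (adjusted p = 0.0327), against 6.10% of all genes with an adjusted p.

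Between siRNA-2 and siRNA-3, 4 of the 37 passed, 3 higher and 1 lower with siRNA-2, against 14.4% of all genes. PCK2 was higher (log2 difference 0.58, SE 0.14, adjusted p = 0.0109), with siRNA-3 levels of 10.9, 11.9 and 13.1 CPM. SDHAF1, an assembly factor of succinate dehydrogenase, had 11.6, 11.7 and 12.2 CPM with siRNA-2, against 7.23, 7.96 and 9.95 CPM with siRNA-3 (0.49, SE 0.14, adjusted p = 0.0262). IDH2, the mitochondrial isocitrate dehydrogenase that makes NADPH, as NNT does, had 56.0, 73.7 and 57.3 CPM with siRNA-2, against 40.5, 54.4 and 44.3 CPM with siRNA-3 (0.42, SE 0.13, adjusted p = 0.0384). These genes did not overlap between the siRNAs. SLC25A13, the aspartate-glutamate carrier of the shuttle, had 62.2, 64.4 and 57.9 CPM with siRNA-2, against 91.4, 82.6 and 73.1 CPM with siRNA-3 (-0.42, SE 0.09, adjusted p = 0.0043), with the scrambled siRNA between them at 68.7, 72.2 and 67.3 CPM. Leaving out siRNA-2 library 11-1 ended the call for PCK2 (adjusted p = 0.0673), SDHAF1 (adjusted p = 0.0618) and IDH2 (adjusted p = 0.195), and so did leaving out siRNA-3 library 11-1 (adjusted p = 0.0592, 0.123 and 0.181 for these genes in turn). The SDHAF1 call also ended without siRNA-2 library 16-1 (adjusted p = 0.0717) or siRNA-3 library 23-5 (adjusted p = 0.0757), and the IDH2 call without siRNA-3 library 30-11 (adjusted p = 0.0977). SLC25A13 passed whichever library was left out, and missed the threshold when only these 2 groups were fitted (adjusted p = 0.0606), as did PCK2 (0.0673), SDHAF1 (0.0922) and IDH2 (0.114). Between the controls IDH2 had the smallest p of the 37 and did not pass (0.36, SE 0.13, adjusted p = 0.173).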

How the data were processed

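Poly(A) RNA was made into libraries with a strand-marking TruSeq kit and sequenced on 4 lanes, per the labels' protocols. The deposited values are raw counts per gene and lane. STAR 2.4.2a, HTSeq 0.6.1p1, DESeq2 1.14.1 and build hg19 are named in the submitters' processing notes. The sources used here do not name the gene annotation, the counting mode or the strand setting. The 4 lane counts of a library were summed, as lanes differed within sampling noise (chi-square per degree of freedom 0.996 to 1.04, against 8.69 to 39.8 between libraries of 1 group). Rows for reads on no gene (11.3 to 16.5% of reads) were left out.

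A single edgeR 4.0.16 model (R 4.3.3) of all 16 libraries had 1 mean per group, TMM scaling, filterByExpr at a minimum count of 10, quasi-likelihood tests and Benjamini-Hochberg adjustment over 15201 genes at a threshold of 0.05. The genes and lists were chosen with earlier results of these data known. Text values cover NNT, every called gene, the 3 genes of the set with the smallest p per comparison and 1 other pathway gene; 1 gene that this rule named is not reported here. Libraries with the same shRNA title code had correlations of 0.141, 0.213 and 0.133 between their deviations from the group means. NNT shRNA 2-3 and scrambled shRNA 24-2, with unlike codes, reached 0.156. The labels do not say that codes pair libraries, and these small correlations cannot settle it. For the shRNA, the code as a replicate block called 0 of the 29 genes, and 1 gene in all, against 3. Alternatives were DESeq2's scaling, DESeq2 1.42.0, no or a stricter filter (5 CPM in 3 libraries), robust dispersion, the replicate block, only the groups compared, and leaving out each library. Promoters are from RefSeq on GRCh38.p14.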

Additional observations from a re-analysis of the deposited data

Results flagged for a closer look

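In the NNT shRNA group of 4 libraries, Dixon's criterion marked library 24-2 for PDK3, at 50.6 CPM, and for MPC1, at 27.5 CPM. The other 3 had 41.3, 42.7 and 42.7 CPM of PDK3 and 30.3, 30.2 and 30.4 CPM of MPC1. Both marked values lay within the range of the scrambled shRNA libraries, which was 26.7 to 34.2 CPM for MPC1. The criterion was applied 30 times, and chance alone marks about 1 in 20 such groups.

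The effects of siRNA-2 and siRNA-3 differed by edgeR's test of the difference for 7 genes. Effect of siRNA-2 minus effect of siRNA-3, on the log2 scale, was 0.475 for GPT2, 0.426 for PDHX and -0.423 for PDP2 in the set of 29. It was 0.577 for PCK2, 0.493 for SDHAF1, 0.425 for IDH2 and -0.421 for SLC25A13 among the other genes of the pathway. In the same contrast 14.4% of all genes passed.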

How the results depend on the processing

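Counts of called genes in the set of 29 depended on the tool and on single siRNA libraries, and the causes were not tested. For the shRNA, the mean of both siRNAs and the shRNA minus siRNA difference, 0 were called under every alternative run. Against the scrambled siRNA, siRNA-2 had 0 in edgeR, 1 (GPT2) with no filter, 2 (GPT2 and PDK3) with the replicate block, 3 with DESeq2 and 0 to 2 when a library was left out, with 2 without siRNA-2 library 11-12. For siRNA-3, DESeq2 called 1. Between the siRNAs 3 were called, 5 with DESeq2, 1 (GPT2) with only the groups compared, and 1 to 3 when a library was left out, with 1 without siRNA-2 library 11-1 and 1 without siRNA-3 library 11-1. Between the controls 0 were called, 1 (PDK1) with no filter, 2 with DESeq2, 1 with only the groups compared and 0 to 1 when a library was left out, with 1 without scrambled siRNA library 30-11; the block could not be fitted there.

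With the shRNA, PDP2 changed sign to 0.096 with the replicate block, and ranged from -0.083 to 0.0986 when a library was left out. GPT2 ranged from -0.0472 to 0.0984 there. The siRNA-3 and scrambled siRNA libraries with the same title code had correlations of 0.361 (23-5) and 0.367 (30-11). The same-code values were -0.019 between siRNA-2 and siRNA-3 (11-1) and 0.0144 between siRNA-2 and scrambled siRNA (16-1). With unlike codes, siRNA-2 16-1 and scrambled siRNA 30-11 reached 0.170. The main fit used no block, and for the shRNA the block changed no call in the set. The block gave GPT2 0.50, PDK3 -0.53 and PCK2 0.67 (adjusted p = 0.0777) for siRNA-2, and IDH2 0.51 (adjusted p = 0.0660) between the siRNAs. Over 624 refits of 44 gene results, 570 kept direction and side of the threshold, 29 lost the call, 18 gained one and 7 changed sign.

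Counts over all genes moved more. For siRNA-2, 299 genes became 464 with no filter, 490 with the block, 907 with DESeq2, 1 with only the groups compared, and 2 to 619 when a library was left out. For siRNA-3, 323 became 856 with DESeq2, 56 with only the groups compared and 69 to 530 when a library was left out. For the siRNA mean, 35 became 85 with no filter, 2 with the block, 290 with DESeq2, 2 with only the groups compared and 2 to 55 when a library was left out. Between the siRNAs 2191 became 530 with only the groups compared. Between the controls 264 became 658 with DESeq2. For the shRNA, 3 became 1 with the stricter filter and 1 with the block, and for the difference of effects 1 became 0 with no filter and 11 with DESeq2.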
